A study of Mus musculus with 6 samples.

Results

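The genes described here are 10 components of the contractile apparatus of striated muscle that sense stretch, mark damaged sarcomeres or take part in their repair. They are *Xirp1*, *Xirp2*, *Nrap*, *Ankrd2*, *Ankrd23*, *Flnc*, *Bag3*, *Myoz2*, *Tcap* and *Des*. They were chosen by name from knowledge of their roles, but with earlier results of these data known, so the choice was not independent of the data. Each name was matched to its Ensembl identifier, which gave 10 of the 54532 genes in the count table. Wildtype ICR mice received a subcutaneous injection of AAV9 at P6 of 1e+11 viral genomes with the cTnT promoter driving GFP, YAP6SA or YAP5SA, and hearts were taken at P9, 3 d later. YAP is the transcriptional coactivator restrained by the Hippo pathway. YAP5SA has alanine in place of serine at the sites that LATS1/2 kinases phosphorylate, so that Hippo signalling cannot inhibit it, and YAP6SA has a further serine-to-alanine substitution that disrupts its binding to TEAD factors. The cTnT promoter directs expression to cardiomyocytes (CMs), and all mice had the virus and the promoter, so GFP is the control for both. CM nuclei were pulled down with an antibody to PCM-1, and poly-A nuclear RNA was sequenced from non-directional libraries. Stretch and sarcomere damage were not measured in these libraries.

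Each of the 3 groups had 2 libraries, 1 in batch 1 and 1 in batch 2, and the labels state 2 hearts for each virus. The reads on genes ran from 14552847 to 19615627 per library, and the 10 genes took 0.195% to 0.242% of them. On the first principal component of all genes kept, which held 66.2% of the variance, the YAP5SA libraries lay at 42.7 and 78.3 and the other 4 libraries between -39.2 and -22.1. The count of *Yap1* was not higher in the overexpressing (OE) libraries, with 1987 and 2647 reads in GFP, 2147 and 2397 in YAP6SA and 1828 and 2089 in YAP5SA, so these counts do not show the delivered variant. With these libraries, fewer cells of a type and less RNA per cell cannot be told apart.

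The Z-disc anchors the thin filaments of neighbouring sarcomeres, and titin runs from it to the middle of the sarcomere as a molecular spring. Proteins at the Z-disc and along titin respond to stretch: ankyrin repeat proteins bind titin and can enter the nucleus, telethonin (TCAP) caps the titin end, and desmin filaments tie the Z-discs of adjacent myofibrils together. Where a sarcomere tears, filamin C and the Xin repeat proteins gather at the lesion, and BAG3 with its heat shock protein partners removes filamin that mechanical load has unfolded. Several of these genes are also part of the program by which CMs respond to pressure load, and their mutations cause cardiomyopathy or myofibrillar myopathy.

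The sequence just before transcript starts was taken from RefSeq (GRCm38.p6), which held windows of 250 bases before and 50 bases after a start for 8 of the 10 genes, not *Xirp1* or *Tcap*. Both strands of each window were searched for the TEAD motif GGAATG, the CArG box bound by SRF, the MEF2 motif and the heat shock element GAANNTTC. The TEAD motif was present for *Ankrd23* and *Flnc*, or 2 of 8 genes, and in 14.7% of all 32851 windows. The 8 genes had 10 windows, because *Ankrd23* and *Flnc* had 2 each. Here and for the other motifs, shares of genes and of windows are therefore unlike measures. The MEF2 motif was present for *Xirp2* at positions -74 to -65 and for *Myoz2* at positions -33 to -24, against 0.557% of all windows. The heat shock element occurred in the *Bag3* window after the start, at positions 42 to 49, against 7.86% of all windows, and the CArG box occurred in 0 of 8 genes and in 1.63% of all windows. These matches are a description of the letters, and no match says only that the letters are not in this window. The 250 bases before the start are shown 5′ to 3′ on the gene's strand for *Ankrd2*, the gene with the largest difference, for *Xirp2*, the called gene with a motif, and for *Myoz2*, *Flnc* and *Ankrd23*, the other genes with a motif upstream of a start. Capitals mark the MEF2 motif in *Xirp2* and *Myoz2* and the TEAD motif, read on the opposite strand as CATTCC, in *Flnc* and *Ankrd23*, and the *Ankrd2* sequence held none of the 4 motifs. RefSeq and GENCODE starts differ: the *Ankrd23* window shown precedes a RefSeq start that lies inside the GENCODE gene and holds 0 GENCODE exon bases, and the *Ankrd2* and *Myoz2* windows shown hold 27 and 28.
*Ankrd2*, chr19:42035777-42036026, plus strand: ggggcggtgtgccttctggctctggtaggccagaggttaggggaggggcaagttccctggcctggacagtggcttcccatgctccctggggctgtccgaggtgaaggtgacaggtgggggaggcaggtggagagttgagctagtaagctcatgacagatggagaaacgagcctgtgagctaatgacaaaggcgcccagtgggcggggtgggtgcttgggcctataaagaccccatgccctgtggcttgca
*Xirp2*, chr2:67445752-67446001, plus strand: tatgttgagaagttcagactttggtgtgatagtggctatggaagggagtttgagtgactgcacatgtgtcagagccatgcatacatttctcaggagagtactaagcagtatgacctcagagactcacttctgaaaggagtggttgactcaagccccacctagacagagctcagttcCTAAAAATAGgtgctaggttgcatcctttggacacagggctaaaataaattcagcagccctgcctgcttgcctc
*Myoz2*, chr3:123034988-123035237, minus strand: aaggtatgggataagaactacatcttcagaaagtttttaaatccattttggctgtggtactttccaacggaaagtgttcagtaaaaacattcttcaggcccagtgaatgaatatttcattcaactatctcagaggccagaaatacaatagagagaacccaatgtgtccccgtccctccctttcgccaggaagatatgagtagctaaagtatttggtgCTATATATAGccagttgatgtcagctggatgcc
*Flnc*, chr6:29433006-29433255, plus strand: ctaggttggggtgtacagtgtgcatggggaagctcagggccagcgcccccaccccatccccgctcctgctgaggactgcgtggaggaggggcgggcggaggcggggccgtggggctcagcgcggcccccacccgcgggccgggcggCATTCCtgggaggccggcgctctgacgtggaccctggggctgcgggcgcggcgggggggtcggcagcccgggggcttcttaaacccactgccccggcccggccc
*Ankrd23*, chr1:36535740-36535989, minus strand: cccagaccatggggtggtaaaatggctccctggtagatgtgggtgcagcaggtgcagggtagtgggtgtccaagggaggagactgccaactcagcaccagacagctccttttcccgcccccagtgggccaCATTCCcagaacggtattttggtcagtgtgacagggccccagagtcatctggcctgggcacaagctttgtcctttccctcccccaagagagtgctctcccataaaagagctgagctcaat

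Expression levels can be compared between genes only per length, here as CPM (read counts scaled to the library size with edgeR's TMM factors) per kilobase of exon. In GFP CMs *Tcap* had the highest level, 305 ± 61.3 CPM per kb (mean ± SD, n = 2 libraries, as throughout). *Des* and *Bag3* followed with 99.3 ± 1.15 and 97.2 ± 25.7 CPM per kb, which did not differ beyond their spread. *Nrap* (61.3 ± 21.1 CPM per kb), *Myoz2* (51.9 ± 6.71), *Xirp1* (51.2 ± 6.83) and *Flnc* (43.6 ± 5.56) came next, and each overlapped its neighbour in this order. *Xirp2* had 15.4 ± 0.398 CPM per kb, *Ankrd23* 4.35 ± 1.69 and *Ankrd2* 0.317 ± 0.205, and these levels as computed were set apart from each other. Another gene model shares 2109 of the 2697 exon bases of *Ankrd23*, and reads there may be missing from its count. Its level per kb may therefore be too low, and its place in this order is uncertain. *Tcap* stood above 99.5% of the 13315 genes kept that had a length, and *Ankrd2* above 3.15%. In YAP5SA OE CMs *Tcap* still had the highest level of the 10, at 145 ± 16.8 CPM per kb, and *Ankrd2* reached 13.1 ± 7.78 CPM per kb, above 70.7% of those genes. *Ankrd2* passed the expression filter through the YAP5SA group alone, and the other 9 genes passed it in other groups too.

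**Figure D1:**
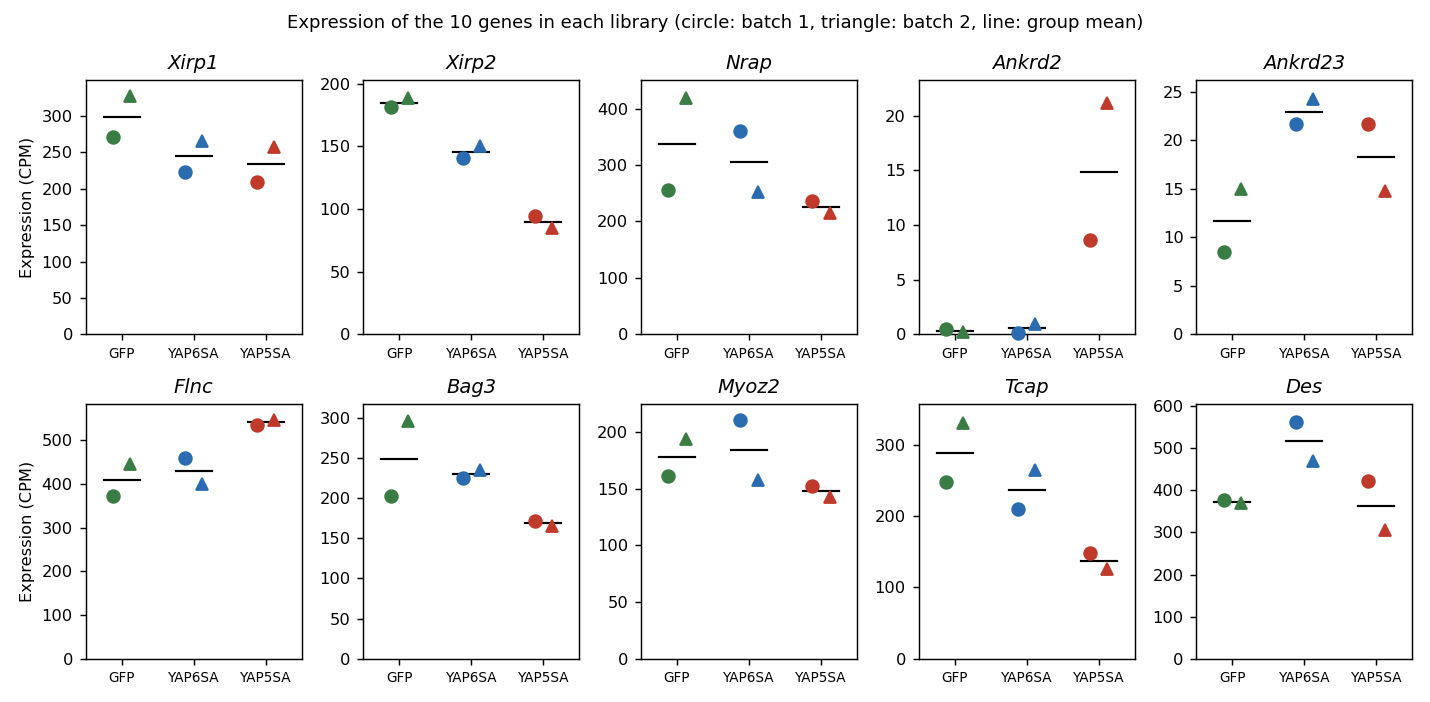
Expression of each gene in CPM (vertical axes, each starting at 0) in the GFP, YAP6SA and YAP5SA groups, with 1 point per library (circle, batch 1; triangle, batch 2) and a line at the group mean. Both YAP5SA libraries lie below all 4 other libraries for *Xirp2* and *Tcap*, and above them for *Ankrd2*, with 8.61 and 21.1 CPM against at most 0.970 CPM.

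To ask whether constitutively active YAP changed these genes, YAP5SA OE CMs were compared with GFP. *Ankrd2*, a titin-binding ankyrin repeat protein, was higher, and *Xirp2*, a Xin actin-binding repeat protein, and *Tcap*, the titin cap, were lower, each of the latter at about 0.48 of the GFP level (fold 0.484 and 0.483). These were 3 of 10 genes called, 1 higher and 2 lower, in edgeR's quasi-likelihood test at a false discovery rate (FDR, Benjamini-Hochberg over all genes tested) under 0.05, and 22.0% of all 13323 genes tested were called in this comparison, 12.8% higher and 9.18% lower. Because *Ankrd2* was tested only through its level in YAP5SA, its call cannot be read against this share. Among the other 9 genes 2 were called, a share near that of the background. The CPM of the groups did not overlap for 8 of the 10 genes, against 60.9% of all genes, and the direction was the same in both batches for 8. At an unadjusted p under 0.05, 2 genes were higher and 5 lower, the other 4 being *Flnc* (higher) and *Xirp1*, *Nrap* and *Bag3* (lower), and 36.4% of all genes tested had such a p. The median log2 fold change was -0.31 over the 10 genes and -0.0031 over all genes tested.

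To ask which of these differences were also present between the variants, YAP5SA OE CMs were compared with YAP6SA OE CMs. The paper reports that YAP6SA was also less nuclear than YAP5SA, and the delivered amounts are not known from these counts. Loss of TEAD binding cannot be told apart from these in this comparison. *Ankrd2* was again higher and *Xirp2* and *Tcap* lower, so 3 of 10 genes were called, against 14.7% of all genes tested (9.0% higher and 5.68% lower). As against GFP, *Ankrd2* was tested only through YAP5SA, and 2 of the other 9 genes were called. The groups were apart for 8 genes, against 57.6% of all genes, and 9 had the same direction in both batches. The median log2 fold change was -0.38 over the 10 genes and -0.01 over all genes tested. These comparisons share the YAP5SA libraries, so the match of the 3 genes is not independent evidence.

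To ask what YAP without TEAD binding changed, YAP6SA OE CMs were compared with GFP. None of the 10 genes was called by edgeR's quasi-likelihood test, 0 higher and 0 lower, against 0.0450% of all genes tested. Over all genes, the reported fit called only 6 higher and 0 lower in this comparison. At an unadjusted p under 0.05, 2 genes were higher, *Ankrd23* and *Des*, and 1 was lower, *Xirp2*, against 5.93% of all genes tested. The likelihood ratio test, DESeq2 and limma-voom also called 0 of the 10. The groups were apart for 4 genes, against 34.3% of all genes, and the median log2 fold change was -0.03. A fit of only the 4 libraries of GFP and YAP6SA called *Ankrd23* and *Des*. Over all genes it called 198 higher and 78 lower, or 2.07% of those tested. The paper reports more differentially expressed genes in YAP6SA OE CMs, in both directions, than the reported fit called. The lack of calls among the 10 genes therefore depends on the fit. It does not show that YAP6SA left them unchanged. Whether *Ankrd23* was called depended on which YAP5SA libraries were in the fit, whereas its log2 fold change moved little. It was 1.01 with either YAP5SA library left out, against 0.98 in the reported fit.

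**Figure D2:**
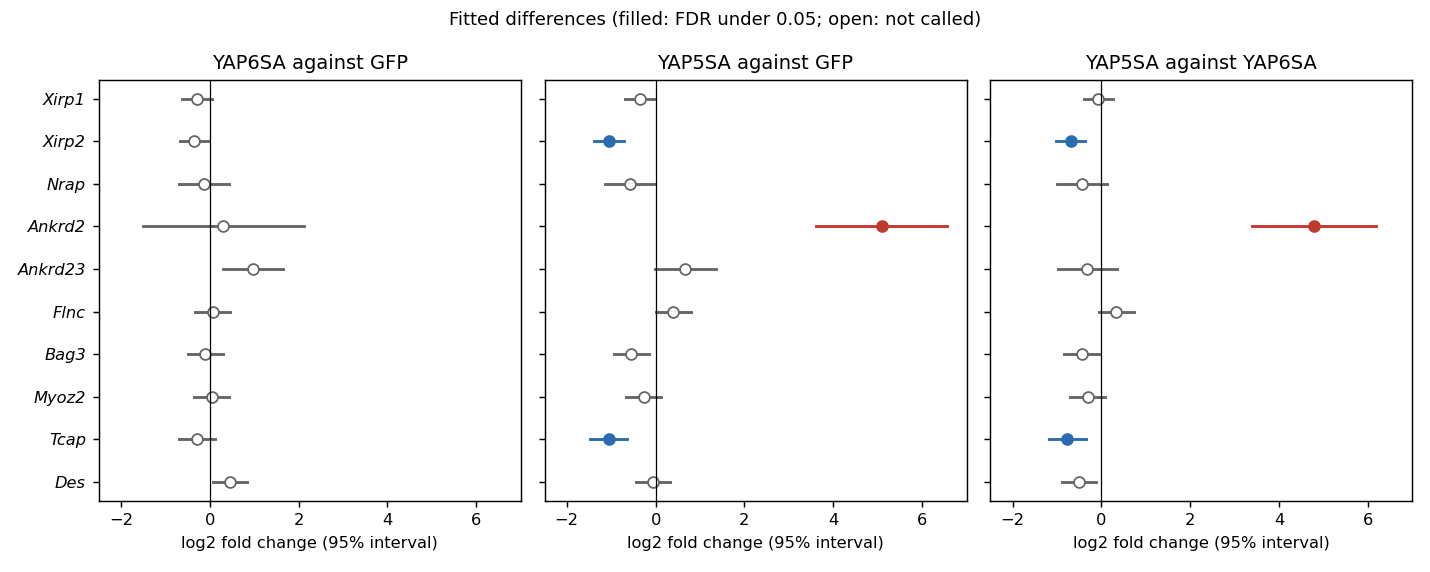
Log2 fold change (horizontal axes) of each gene in the 3 comparisons, with its 95% confidence interval as a bar; filled points passed an FDR of 0.05 and open points did not. *Xirp2*, *Ankrd2* and *Tcap* are filled in both comparisons of YAP5SA, with *Ankrd2* at 5.09 and 4.78, and no gene is filled for YAP6SA against GFP.

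*Ankrd2* (ENSMUSG00000025172, chromosome 19 of GRCm38, 42036000 to 42045110, plus strand) encodes a muscle ankyrin repeat protein of the titin N2A region that is most abundant in slow skeletal muscle. Its count was 10 in batch 1 and 3 in batch 2 for GFP, 3 and 16 for YAP6SA, and 130 and 377 for YAP5SA, and library values throughout are in this order of batches. Both YAP5SA libraries were far above the other 4, and the GFP and YAP6SA libraries overlapped. YAP5SA against GFP gave a log2 fold change of 5.09 (standard error 0.66, 95% interval 3.61 to 6.57, FDR 0.00109), with 3.77 in batch 1 and 6.09 in batch 2. The expression filter let it into the test through YAP5SA, the group where it was high. With no filter on level, a fit of the same 6 libraries also called it among 27396 genes (5.09, FDR 9.75e-25), which is not independent support. That setting also lowered the FDR of *Xirp2*, from 0.00162 to 9.43e-08, so the FDR of the 2 fits cannot be compared. The summed counts, 507 against 13, gave a ratio of 40.7 with a 95% interval of 23.6 to 76.9 that covers counting error only. Against YAP6SA the log2 fold change was 4.78 (standard error 0.63, FDR 0.00168), with 5.02 in batch 1 and 4.29 in batch 2. For YAP6SA against GFP it was 0.31, with an interval of -1.5 to 2.12 that leaves the direction undetermined at this depth.

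*Ankrd23* (ENSMUSG00000067653, chromosome 1, 36530188 to 36536883, minus strand), the diabetes-related ankyrin repeat member of the same family, had 8.52 and 15.0 CPM in GFP, 21.6 and 24.2 in YAP6SA and 21.7 and 14.8 in YAP5SA. Both YAP6SA libraries were above both GFP libraries, whereas the YAP5SA libraries overlapped with GFP. YAP6SA exceeded GFP by a log2 fold change of 0.98 (standard error 0.30, 95% interval 0.31 to 1.66, unadjusted p 0.00891, FDR 0.611), with 1.33 in batch 1 and 0.69 in batch 2. For YAP5SA against GFP it was 0.66 (FDR 0.148), with 1.34 in batch 1 and -0.02 in batch 2. Of its 2697 exon bases, 2109 also belong to the gene model *Gm42417* on the same strand, which had 0 counts in every library, and reads that fall on more than 1 gene are left out of the counts, so the values of *Ankrd23* may rest on the remaining bases.

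*Ankrd1*, the cardiac member of this ankyrin repeat family and a known YAP target, was named as the relative of these genes. It was at 726 and 874 CPM in GFP, 1325 and 1596 in YAP6SA and 3425 and 4814 in YAP5SA, with 3 groups that did not overlap. Its log2 fold change was 2.35 for YAP5SA against GFP (standard error 0.21, FDR 2e-04), 1.48 for YAP5SA against YAP6SA (FDR 0.0019) and 0.87 for YAP6SA against GFP (FDR 0.328). The number of *Ankrd2* reads per *Ankrd1* read was 0.000725 and 0.000224 in GFP, 0.000115 and 0.000608 in YAP6SA, and 0.00251 and 0.00439 in YAP5SA. Both YAP5SA ratios were above the other 4, although *Ankrd1* itself was higher there.

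*Tcap* (ENSMUSG00000007877, chromosome 11, 98383811 to 98384953, plus strand) encodes telethonin, which joins a pair of titin ends at the Z-disc. It had 248 and 330 CPM in GFP, 210 and 264 in YAP6SA and 149 and 126 in YAP5SA. Both YAP5SA libraries were below the other 4, and GFP and YAP6SA overlapped. Telethonin RNA in YAP5SA OE CMs differed from GFP by -1.05 on the log2 scale (standard error 0.19, 95% interval -1.47 to -0.64, FDR 0.0047), and the batches gave -0.73 and -1.38. It was -0.77 against YAP6SA (FDR 0.0230; batches -0.49 and -1.06) and -0.28 for YAP6SA against GFP (FDR 0.896). Without the GFP library of batch 2 the call against GFP was lost (-0.87, FDR 0.0605), and the call against YAP6SA was lost without either YAP6SA library (FDR 0.0634 and 0.266), without the YAP5SA library of batch 2 (-0.46, FDR 0.0896) and without batch as a block (FDR 0.0509).

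Titin itself, *Ttn*, had 6950 and 8039 CPM in GFP, 5935 and 5890 in YAP6SA and 4926 and 3922 in YAP5SA, with a log2 fold change of -0.76 for YAP5SA against GFP that missed the threshold (FDR 0.0516). There were 0.0357 and 0.0411 *Tcap* reads per *Ttn* read in GFP, 0.0353 and 0.0449 in YAP6SA, and 0.0302 and 0.0322 in YAP5SA, so the YAP5SA ratios were below the others by a margin smaller than the range among them. Of the 11 genes listed as the ankyrin repeat family and titin partners, all were tested, and YAP5SA OE CMs had 3 higher (*Ankrd1*, *Fhl1*, *Smpx*) and 3 lower (*Cmya5*, *Mypn*, *Trim63*) than GFP, with a median of -0.40. Beside the counts of this and the other partner lists stand the shares over all genes tested. In YAP5SA these were 22.0% called against GFP (12.8% higher, 9.18% lower) and 14.7% against YAP6SA. *Cmya5*, myospryn, a large scaffold of the costamere and the junctional membranes, fell the most among the called genes, by 1.01 on the log2 scale (FDR 0.0149). Against YAP6SA, 2 were higher (*Ankrd1*, *Smpx*) and 3 lower (*Cmya5*, *Mypn*, *Trim63*), and *Mypn*, myopalladin, had the largest fall among those called (-1.37, FDR 0.0102). That value rests on unequal YAP6SA libraries, with 341 and 129 CPM, against 88.8 and 78.5 in YAP5SA. In YAP6SA OE CMs 0 of the 11 were called against GFP, and 3 had an unadjusted p under 0.05, all higher.

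The Xin repeat proteins bind and cross-link actin at the intercalated disc and at sites of sarcomere damage. *Xirp2* (ENSMUSG00000027022, chromosome 2, 67446002 to 67526614, plus strand), whose upstream sequence with a MEF2 motif is shown above, had 182 and 188 CPM in GFP, 141 and 150 in YAP6SA and 94.6 and 84.7 in YAP5SA. The 3 groups did not overlap, and YAP6SA lay between the other two. YAP5SA against GFP gave -1.05 on the log2 scale (standard error 0.15, 95% interval -1.38 to -0.71, FDR 0.00162), and -0.94 and -1.15 within the batches. The value was -0.70 for YAP5SA against YAP6SA (FDR 0.0135; batches -0.57 and -0.82), a call that was lost without either YAP6SA library (FDR 0.0587 and 0.213). For YAP6SA against GFP it was -0.35 (95% interval -0.68 to -0.02, FDR 0.821).

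*Xirp1* (ENSMUSG00000079243, chromosome 9, 120013755 to 120023598, minus strand), its paralog, had 271 and 327 CPM in GFP, 223 and 266 in YAP6SA and 210 and 257 in YAP5SA. Both OE groups lay below GFP and overlapped each other. Against GFP the log2 fold change was -0.36 for YAP5SA (95% interval -0.69 to -0.03, FDR 0.110) and -0.29 for YAP6SA (95% interval -0.62 to 0.04, FDR 0.842), and the difference between the variants was -0.07, with an interval of -0.40 to 0.26. The number of *Xirp2* reads per *Xirp1* read was 0.670 and 0.576 in GFP, 0.630 and 0.564 in YAP6SA, and 0.451 and 0.329 in YAP5SA. Within the same libraries, then, *Xirp2* was lower relative to its paralog in YAP5SA OE CMs.

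*Nrap* (ENSMUSG00000049134, chromosome 19, 56320035 to 56390037, minus strand) encodes a nebulin-related anchoring protein of the intercalated disc that takes part in myofibril assembly. Its values were 255 and 419 CPM in GFP, 360 and 252 in YAP6SA and 236 and 215 in YAP5SA. Both YAP5SA libraries were below the other 4, but the GFP and YAP6SA libraries each spread widely. YAP5SA against GFP gave -0.58 on the log2 scale (95% interval -1.14 to -0.02, FDR 0.128), with -0.11 in batch 1 and -0.96 in batch 2. *Nrap* shares 268 exon bases with *Habp2* on the opposite strand, which had 256 to 465 counts, and reads there cannot be assigned to a strand in these libraries.

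Of the 18 genes listed as the Z-disc scaffold, 17 were tested. The list also holds *Myom1*, *Myom2* and *Myom3*, myomesins of the M-band, and *Cavin4*, a protein of caveolae. YAP5SA OE CMs had 2 higher (*Pdlim7*, *Neb*) and 2 lower (*Nebl*, *Cavin4*) than GFP, with a median of -0.31. *Neb*, nebulin, the thin filament ruler of skeletal muscle, had 7.31 and 7.90 CPM in GFP, 9.06 and 12.1 in YAP6SA and 28.4 and 50.5 in YAP5SA. Its log2 fold change was 2.32 against GFP (FDR 0.000441) and 1.87 against YAP6SA (FDR 0.0015). *Nebl*, nebulette, its shorter cardiac relative, had 544 and 634 CPM in GFP and 392 and 247 in YAP5SA (-0.90, FDR 0.0184). *Actn2*, sarcomeric alpha-actinin, the main cross-linker of the Z-disc, was not called, with 930 and 1787 CPM in GFP and 1136 and 1018 in YAP5SA (-0.31, FDR 0.476). Against YAP6SA, 2 were higher (*Neb*, *Synpo2l*) and 1 lower (*Cavin4*, -0.91, FDR 0.00633), and for YAP6SA against GFP 0 were called, with 1 higher and 1 lower at an unadjusted p under 0.05.

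*Flnc* (ENSMUSG00000068699, chromosome 6, 29433256 to 29461883, plus strand) encodes filamin C, the muscle actin cross-linker that moves to torn sarcomeres. It had 373 and 447 CPM in GFP, 459 and 401 in YAP6SA and 536 and 547 in YAP5SA. Both YAP5SA libraries were above the other 4. Against GFP the difference was 0.40 on the log2 scale (95% interval 0.01 to 0.79, FDR 0.125), with 0.52 in batch 1 and 0.29 in batch 2, and against YAP6SA it was 0.33 (95% interval -0.06 to 0.72, FDR 0.226). The upstream TEAD motif shown above is 1 that 14.7% of all windows hold.

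A list of 10 genes held the filamin family, filamin partners and integrin adhesion genes, and 8 were tested. Of these, 2 were higher (*Tln1*, *Tln2*) and 2 lower (*Fblim1*, *Itgb1bp2*) in YAP5SA OE CMs than in GFP, with a median of 0.33. The higher genes were talins, not filamins, and *Flna*, filamin A, was not called (0.44, FDR 0.0948). *Tln2*, the talin most abundant in striated muscle, which couples integrins to actin, had 81.6 and 128 CPM in GFP, 111 and 111 in YAP6SA and 159 and 215 in YAP5SA. The other 4 libraries were below both of YAP5SA, with a log2 fold change of 0.84 (FDR 0.00918) against GFP and 0.73 (FDR 0.0230) against YAP6SA. *Fblim1*, migfilin, which links filamin to integrin adhesions, fell by 1.09 (FDR 0.0188) on the log2 scale against GFP, and *Itgb1bp2*, melusin, an integrin-binding chaperone, fell by 1.04 (FDR 0.0235) against YAP6SA. The same 2 higher and 2 lower genes were called against YAP6SA, which shares the YAP5SA libraries, and 0 were called for YAP6SA against GFP, with 0 at an unadjusted p under 0.05.

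*Bag3* (ENSMUSG00000030847, chromosome 7, 128523616 to 128546981, plus strand) encodes the cochaperone that brings HSP70 and the small heat shock protein HSPB8 to damaged filamin. It had 203 and 295 CPM in GFP, 225 and 235 in YAP6SA and 171 and 166 in YAP5SA. Both YAP5SA libraries were below the other 4. Its log2 fold change against GFP was -0.54 (standard error 0.18, 95% interval -0.94 to -0.15), and -0.24 and -0.83 within the batches, and it missed the threshold (FDR 0.0532). It passed in 5 of 9 alternative fits, with FDR from 0.0158 to 0.0935. Against YAP6SA it was -0.45 (95% interval -0.84 to -0.05, FDR 0.119), and for YAP6SA against GFP -0.10 (FDR 0.951).

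Of the 19 chaperone and assisted autophagy genes, 18 were tested, and YAP5SA OE CMs had 5 higher and 5 lower than GFP, with a median of 0.04. The higher genes were *Hspa8*, *Hspa1b*, *Hspb2*, *Cryab* and *Hsp90aa1*, which are HSP70, HSP90 and small heat shock proteins. *Hspa8*, the constitutive HSP70, had 108 and 160 CPM in GFP, 159 and 163 in YAP6SA and 206 and 314 in YAP5SA (0.96 against GFP, FDR 0.00555; 0.65 against YAP6SA, FDR 0.0359). *Hspa1b*, an inducible HSP70, had 0.578 and 0.784 CPM in GFP, 0.712 and 0.788 in YAP6SA and 1.66 and 3.31 in YAP5SA (1.82, FDR 0.0422). It passed the expression filter through the YAP5SA group alone, so its call is not independent of the difference. The lower genes were *Hspb3*, *Hspb6*, *Hspb8*, *Synpo2* and *Unc45b*. Partners of BAG3 were thus among the higher genes (HSP70) and among the lower genes (*Hspb8*, *Synpo2*).

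*Hspb8* had 74.0 and 74.4 CPM in GFP, 89.9 and 80.7 in YAP6SA and 52.1 and 49.4 in YAP5SA, a log2 fold change of -0.55 against GFP (FDR 0.0253) and -0.75 against YAP6SA (FDR 0.00978). *Synpo2*, the Z-disc partner through which BAG3 reaches the autophagosome machinery, had 72.7 and 48.5 CPM in GFP, 43.4 and 40.8 in YAP6SA and 26.3 and 12.4 in YAP5SA (-1.69 against GFP, FDR 0.00135; -1.21 against YAP6SA, FDR 0.00863). There were 2.74 and 3.97 *Bag3* reads per *Hspb8* read in GFP, 2.5 and 2.92 in YAP6SA, and 3.29 and 3.35 in YAP5SA, so both OE groups overlapped with GFP and were apart from each other. Against YAP6SA, 2 genes of the list were higher (*Hspa8*, *Hsp90aa1*) and 3 lower (*Hspb6*, *Hspb8*, *Synpo2*), with *Hspb6*, a small heat shock protein of muscle, the lowest of those called (-1.23, FDR 0.00415). For YAP6SA against GFP 0 of the 18 were called and 1 was higher at an unadjusted p under 0.05.

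*Des* (ENSMUSG00000026208, chromosome 1, 75360329 to 75368579, plus strand) encodes desmin, the muscle intermediate filament protein. It had 376 and 370 CPM in GFP, 563 and 469 in YAP6SA and 421 and 305 in YAP5SA. Both YAP6SA libraries were above the other 4, and the GFP libraries lay within the range of the YAP5SA libraries. On the log2 scale the difference was 0.46 for YAP6SA against GFP (95% interval 0.08 to 0.84, unadjusted p 0.0234, FDR 0.735), with 0.58 in batch 1 and 0.34 in batch 2. For YAP5SA against YAP6SA it was -0.52 (95% interval -0.90 to -0.13, FDR 0.0726; called in 3 of 9 alternative fits), and for YAP5SA against GFP -0.06 (95% interval -0.44 to 0.33).

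Of the 12 intermediate filament genes and desmin partners, 11 were tested, and 3 were higher (*Vim*, *Nes*, *Krt18*) and 1 lower (*Plec*) in YAP5SA OE CMs than in GFP, with a median of -0.10. *Vim*, the vimentin of immature and nonmuscle cells, had 157 and 98.9 CPM in GFP, 228 and 113 in YAP6SA and 212 and 267 in YAP5SA (0.98, FDR 0.0276). The number of *Vim* reads per *Des* read was 0.417 and 0.268 in GFP, 0.406 and 0.242 in YAP6SA, and 0.503 and 0.874 in YAP5SA. *Krt18*, a keratin typical of simple epithelia, had 1.10 and 2.42 CPM in GFP, 8.29 and 5.64 in YAP6SA and 9.14 and 8.35 in YAP5SA. It was called for YAP5SA against GFP (2.33, FDR 0.00654) but not for YAP6SA against GFP (2.01, FDR 0.328), and the difference between the variants was 0.32 (FDR 0.637). *Plec*, plectin, the linker of desmin to the Z-disc and membrane, had 556 and 742 CPM in GFP and 437 and 374 in YAP5SA (-0.68, FDR 0.0372). Against YAP6SA 0 of the 11 were called, with 0 higher and 2 lower at an unadjusted p under 0.05, and for YAP6SA against GFP 0 were called, with 2 higher.

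*Myoz2* (ENSMUSG00000028116, chromosome 3, 123006206 to 123035015, minus strand) encodes calsarcin-1, which tethers calcineurin to the Z-disc and restrains it. It had 161 and 194 CPM in GFP, 210 and 158 in YAP6SA and 153 and 143 in YAP5SA. Both YAP5SA libraries were the lowest, and the log2 fold change against GFP was -0.27 (95% interval -0.67 to 0.13, FDR 0.309), while that of YAP6SA was 0.04 (95% interval -0.36 to 0.44). All 13 genes of the calcineurin pathway were tested, and YAP5SA OE CMs had 2 higher (*Rcan1*, *Rcan2*) and 1 lower (*Nfatc2*) than GFP, with a median of -0.08. *Rcan1*, a calcineurin regulator whose transcription calcineurin itself induces, had 84.8 and 80.9 CPM in GFP, 152 and 137 in YAP6SA and 138 and 169 in YAP5SA. Both OE groups were above GFP, and the log2 fold change was 0.89 for YAP5SA (FDR 0.0049) and 0.80 for YAP6SA (FDR 0.225), with 0.09 between them (FDR 0.742). *Nfatc2*, a transcription factor that calcineurin activates, was lower against GFP (-1.15, FDR 0.00858) and against YAP6SA (-1.03, FDR 0.0181), where *Ppp3ca*, a catalytic subunit of calcineurin, was higher (0.97, FDR 0.00918). For YAP6SA against GFP 0 of the 13 were called, with 1 higher and 1 lower at an unadjusted p under 0.05.

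**Figure D3:**
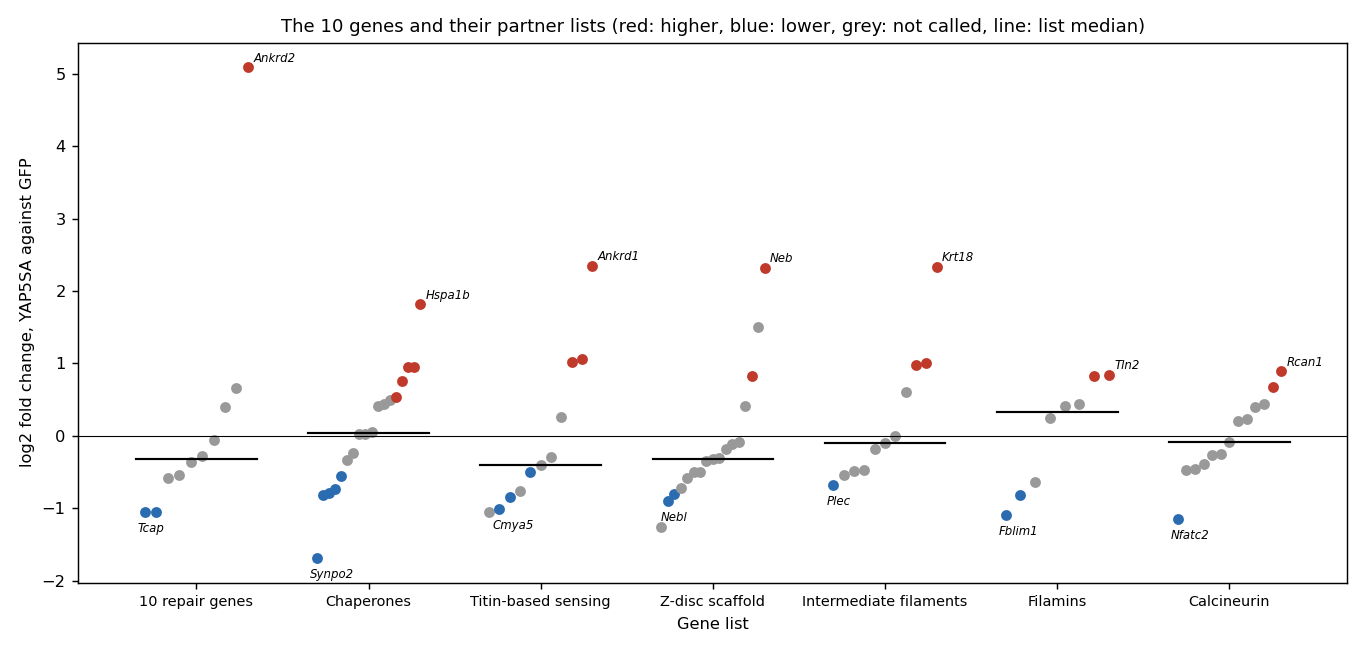
Log2 fold change of YAP5SA against GFP (vertical axis) for the 10 genes and for each tested gene of the 6 partner lists, with called genes in red (higher) or blue (lower), others in grey, and a line at the median of each list. Each list holds calls in both directions, and the called gene with the largest difference in each direction is named.

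**Figure D4:**
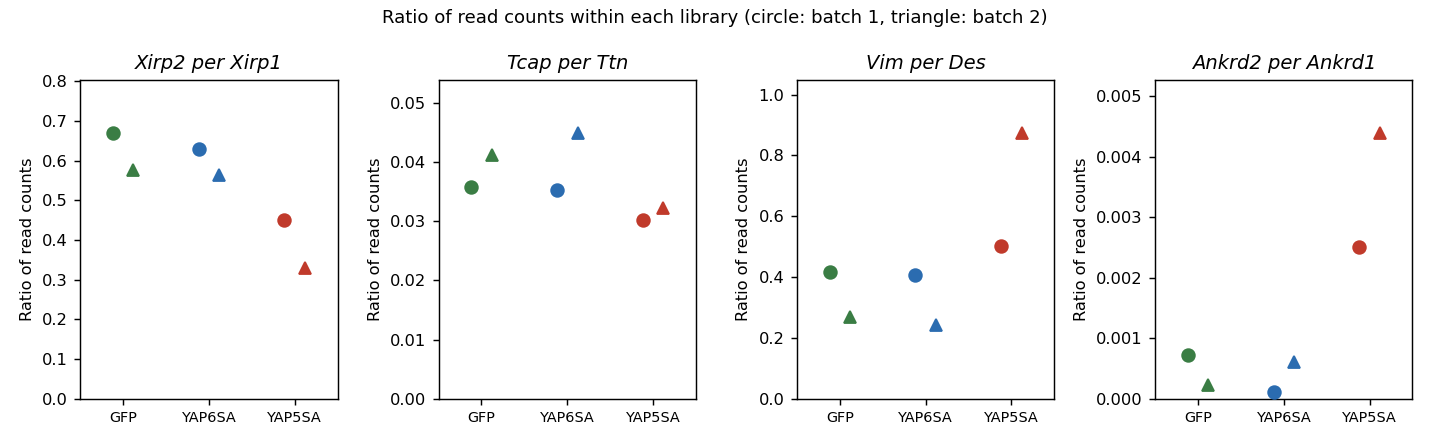
Ratio of the read counts of gene pairs within each library (vertical axes, starting at 0) in the 3 groups, with 1 point per library (circle, batch 1; triangle, batch 2). Both YAP5SA libraries lie below the other 4 for *Xirp2* per *Xirp1* and *Tcap* per *Ttn*, and above them for *Vim* per *Des* and *Ankrd2* per *Ankrd1*.

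Across the 6 libraries the log2 CPM of *Xirp2* and *Tcap* moved together (Pearson's r 0.962), as did *Nrap* and *Myoz2* (0.936) and *Bag3* and *Tcap* (0.930), and *Xirp2* and *Ankrd2* moved oppositely (-0.909). These are descriptions over 6 points that fall into 3 groups and 2 batches. The genes most like *Ankrd2* by Pearson's r were *Cadm4* (0.997), *Ncs1* (0.996) and *Nt5e* (0.994), those most like *Xirp2* were *Atad3a* (0.998), *Akap1* (0.998) and *Adcy6* (0.996), and those most like *Tcap* were *Cnot8* (0.997), *Gm5628* (0.992) and *Trim9* (0.992). Of the 12700 candidate genes, 918, 974 and 1057 had an r over 0.9 with *Ankrd2*, *Xirp2* and *Tcap*, so such likeness was common.

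Some markers of CMs were lower in YAP5SA, as the lower members were. The summed level of 8 CM markers was 49540 and 66510 CPM in GFP, 47340 and 60880 in YAP6SA and 41610 and 30350 in YAP5SA, and all 8 had a negative log2 fold change in YAP5SA against GFP, with a median of -0.76 and 2 called (*Ryr2*, -0.81, FDR 0.0455; *Pln*, -1.04, FDR 0.00784). The other 6 were not called. The smallest differences were those of *Myl2* (-0.13, FDR 0.726), *Actn2* (-0.31, FDR 0.476) and *Tnnt2* (-0.35, FDR 0.464), and *Myl2* and *Actn2* overlapped with GFP. The summed YAP5SA level was below the other 4 libraries, as the levels of *Xirp2* and *Tcap* were. The part of the CM marker shift in those 2 genes was not tested. Some markers of skeletal muscle were higher in YAP5SA, as *Ankrd2* was. The summed level of 13 such markers was 84.0 and 52.6 CPM in GFP, 65.9 and 58.0 in YAP6SA and 155 and 211 in YAP5SA, and of the 6 tested *Myh1*, *Myh2* and *Casq1* were called higher in YAP5SA OE CMs and *Tnnt3* (0.57, FDR 0.411), *Tnni2* (-0.14, FDR 0.896) and *Mybpc2* (0.25, FDR 0.474) were not called. *Myh1* and *Myh2*, fast skeletal myosins, had 0 counts in all GFP and YAP6SA libraries and 127 and 499 (*Myh1*) and 347 and 1041 (*Myh2*) counts in YAP5SA, so they were tested only through that group. *Casq1*, skeletal calsequestrin, was higher by 1.16 on the log2 scale (FDR 0.0107). *Myod1*, *Myh4* and *Tnnc2* were at 0 counts in all 6 libraries, *Actn3*, *Ryr1* and *Mybpc1* had at most 3 counts in any library, and *Myog* had counts in the YAP5SA libraries alone, 19 and 52. The part of skeletal muscle RNA in the *Ankrd2* difference was not tested.

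Other cell types were also checked. The summed level of 7 fibroblast markers ran from 716 to 1403 CPM over the libraries, that of 6 endothelial markers from 228 to 308, that of 6 mural markers from 187 to 268 and that of 6 erythroid markers from 24.8 to 64.0, and in each list the YAP5SA libraries lay within the range of the other 4. The 6 macrophage markers summed to 50.2 to 102 CPM, highest in the YAP5SA library of batch 2. In YAP5SA against GFP, 0 fibroblast, 0 endothelial and 0 erythroid markers were called by edgeR's quasi-likelihood test (3, 0 and 0 at an unadjusted p under 0.05), 1 macrophage marker was higher (*C1qa*, 0.96, FDR 0.0228) and 1 mural marker was higher (*Myh11*, 1.00, FDR 0.0274). In YAP6SA against GFP 0 markers of any list were called.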

How the data were processed

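The 6 libraries hold poly-A RNA from CM nuclei. Per the labels and the methods, the authors aligned with STAR (mm10, Ensembl 94) and deposited raw counts of reads on each gene, not normalized or filtered. Reads on several genes (5.79% to 6.31%), outside genes (9.43% to 9.84%) or mapped to several places (2.90% to 4.19%) are not in the gene counts. Names and coordinates came from GENCODE M21 (GRCm38).

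Genes with a median log2 CPM over 1 in at least 1 group were kept (13323). The edgeR 4.0.16 quasi-likelihood model with TMM scaling (R 4.3.3) covered all 6 libraries with terms for group and batch. FDR is the p adjusted by Benjamini-Hochberg across the genes kept, with a threshold of 0.05. Values per batch are differences in log2 CPM with a prior count of 2. The replicate number is the batch number in the labels, so batch pairs the libraries, and deviations from group means correlated at 0.368 (GFP and YAP6SA), 0.0985 (GFP and YAP5SA) and 0.175 (YAP6SA and YAP5SA). The p-values rest on the spread between the 2 libraries of each group after the batch term, pooled over the 3 groups and moderated across genes. The YAP5SA libraries therefore also bear on the p-values of YAP6SA against GFP. In simulated data 58 of 100 2-fold and 100 of 100 4-fold changes were recovered for YAP5SA against GFP over 13047 genes, with 7 false calls, and 64 and 100, with 10 false calls, for YAP5SA against YAP6SA. Both fold sizes count their false calls together. The simulation used a common dispersion for all genes and the same batch shift in all groups, and it changed only genes above a minimum level. It held no change in YAP6SA, so recovery for YAP6SA against GFP is not known, and recovery in the real data may differ.

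The 10 genes, the partner lists and the marker lists were chosen with earlier results of these data known. A gene of the titin list and another of the filamin list are not reported here and were left out of the list counts. Named were the 10 genes, *Ankrd1*, *Hspb8*, *Synpo2*, *Actn2* and *Ttn*, the called gene with the largest difference in each direction from each list, and the 3 genes most like each called gene. *Vim* and the marker genes with values, were named after their values were seen. Alternatives were RLE and upper quartile scaling, no filter, at least 10 counts in every library, the likelihood ratio test, DESeq2 1.42.0, limma-voom (limma 3.58.1), no batch term, 4-library fits, thresholds of 0.01 and 0.1, and each library left out in turn. Motifs were searched in RefSeq windows of 300 bases.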

Additional observations from a re-analysis of the deposited data

How the results depend on the processing

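*Xirp2* and *Ankrd2* were called for YAP5SA against GFP under every alternative that tested them, and leaving out each library gave -1.15 to -0.92 for *Xirp2* and 3.87 to 6.86 for *Ankrd2*. *Tcap* was called in 9 of 9 alternative fits and lost without the GFP library of batch 2, with values of -1.36 to -0.74. *Ankrd2* was not tested with at least 10 counts in every library. The number of the 10 genes called for YAP6SA against GFP was 0 in the reported fit. It was 1 without a filter (*Ankrd23*) and 2 in a 4-library fit (*Ankrd23*, *Des*). The share of all genes called was 0.045%, 0.529% and 2.07% in these 3 fits. For YAP5SA against GFP the number was 3 in the reported fit and 5 without a filter (adding *Nrap* and *Bag3*). The share of all genes called was 22.0% and 12.8% in these fits. For YAP5SA against YAP6SA the number was 3, then 1 at a threshold of 0.01 (*Ankrd2*). With a library left out the number moved in all 3 comparisons, as did the share of all genes called. Without the replicate block the counts were 0, 3 and 2, and the block changed only the call of *Tcap* against YAP6SA among the 10 genes. Over all genes, that fit called 0 higher and 0 lower, 1331 and 759, and 851 and 301, against 6 and 0, 1708 and 1223, and 1199 and 757 with the block. For YAP6SA against GFP, no filter called 109 higher and 36 lower, the likelihood ratio test 54 and 28, DESeq2 40 and 15, and a 4-library fit 198 and 78.

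Of the uncalled differences, 8 changed sign with 1 library left out, and these have no settled direction. For YAP6SA against GFP they ranged from -0.64 to 0.40 for *Nrap* (0.27 without the YAP6SA library of batch 2), -1.0 to 1.98 for *Ankrd2* (-0.97), -0.10 to 0.24 for *Flnc*, -0.36 to 0.18 for *Bag3*, and -0.22 to 0.31 for *Myoz2* (-0.21 without the YAP6SA library of batch 1). For YAP5SA against GFP they ranged from -0.51 to 0.0013 for *Myoz2* and -0.21 to 0.12 for *Des* (0.11 without the GFP library of batch 2), and for YAP5SA against YAP6SA from -0.86 to 0.16 for *Ankrd23*. The causes were not tested. A fit with 1 library left in a group assumes that it varies like the others. Over the 30 single-gene differences and their alternatives, 461 values kept the direction and the side of the threshold, 9 lost a call, 24 gained one and 13 changed sign. The scalings moved the median of all genes by less than 0.1 (log2). With 3 to 16 counts of *Ankrd2* in each GFP and YAP6SA library, its level there is poorly known.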
